A study of Homo sapiens with 7 samples.

Results

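Sites of PPARα binding in HepG2 cells given ERα and an ERα agonist were compared with those in HepG2 cells given PPARα alone. Peaks of 4 chromatin immunoprecipitation libraries, 2 per group, on chromosomes 1 to 22 and X were merged into regions wherever they overlapped by 1 bp or more. A region was taken to differ when both libraries of one group had a peak in it and neither library of the other had one. By that rule 25162 of 83639 regions differed, where the 6 peak lists of the series gave 92292 regions in all. PPARα+ERα-only regions, with peaks in both PPARα+ERα libraries alone, numbered 8436 (10.1% of the 83639), and PPARα-only regions numbered 16726 (20.0%). These shares are set by the rule and describe the comparison. All counts below refer to these regions unless another set is named.

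HepG2 is an established, aneuploid human hepatocellular carcinoma line. Both groups were transfected with a PPARα expression vector and, from 48 h later, were treated for 2 h with 10 µM WY14643, an agonist of PPARα, before chromatin was precipitated with an antibody to PPARα. The PPARα+ERα group had in addition an ERα vector driven by a CMV promoter and the ERα-selective agonist PPT at 10 nM for 45 min ahead of it. ERα and PPT came together, so the receptor and its ligand cannot be told apart. The labels spell the PPARα agonist both WY14643 and WY13643. They do not say whether the libraries of a group came from separate cultures, so the spread between them may be technical, and the numbers 1 and 2 follow the order of deposit. Expression was not measured in these files, and the identity of the cells was not checked by marker genes.

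PPARα is a nuclear receptor that binds DNA with RXR at direct repeats of the hexamer AGGTCA and switches on genes of fatty acid uptake, oxidation and ketogenesis in liver. ERα is the estrogen receptor that binds inverted repeats of the related hexamer. Both receptors recruit shared coactivators, among them the Mediator subunit MED1 and the NCOA proteins.

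The promoters of 4 genes show sequence that the differing regions covered in part. By peak rank, these are the first genes of each direction whose promoter window a differing region covered at least in part. They are COG4 and XPNPEP3 for PPARα+ERα-only regions and PHF3 and TMEM127 for PPARα-only regions. The regions at COG4, XPNPEP3 and PHF3 covered the start site itself. The region at TMEM127 stopped short of the start, with its summit 608 bp upstream. Each line gives the 250 bases before the annotated start site, 5′ to 3′ on the strand of the gene, from RefSeq (GRCh38.p14). Capitals mark matches to any of 11 transcription factor motifs searched on both strands.
COG4, chr16:70523555-70523804, minus strand: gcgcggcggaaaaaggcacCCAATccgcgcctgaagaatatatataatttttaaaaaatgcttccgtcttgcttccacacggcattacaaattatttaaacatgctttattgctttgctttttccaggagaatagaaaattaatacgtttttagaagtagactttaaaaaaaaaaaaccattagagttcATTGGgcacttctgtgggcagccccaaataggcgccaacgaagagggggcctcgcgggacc
XPNPEP3, chr22:40856898-40857147, plus strand: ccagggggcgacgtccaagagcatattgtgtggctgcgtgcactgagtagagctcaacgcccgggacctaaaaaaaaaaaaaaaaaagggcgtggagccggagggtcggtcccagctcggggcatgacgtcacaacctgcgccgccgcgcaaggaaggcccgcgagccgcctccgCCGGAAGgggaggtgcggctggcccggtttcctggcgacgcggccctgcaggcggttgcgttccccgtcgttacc
PHF3, chr6:63646276-63646525, plus strand: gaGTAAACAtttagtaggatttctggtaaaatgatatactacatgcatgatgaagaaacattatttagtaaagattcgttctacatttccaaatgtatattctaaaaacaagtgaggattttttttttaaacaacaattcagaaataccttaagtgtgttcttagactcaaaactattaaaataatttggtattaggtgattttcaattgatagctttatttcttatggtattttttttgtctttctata
TMEM127, chr2:96260596-96260845, minus strand: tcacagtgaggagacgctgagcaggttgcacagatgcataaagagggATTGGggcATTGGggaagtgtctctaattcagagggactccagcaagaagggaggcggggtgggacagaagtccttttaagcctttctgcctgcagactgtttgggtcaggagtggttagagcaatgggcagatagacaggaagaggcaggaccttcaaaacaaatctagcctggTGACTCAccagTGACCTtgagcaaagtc
The COG4 promoter held 2 CCAAT boxes and that of XPNPEP3 held 1 ETS motif. The PHF3 promoter held 1 FOXA motif and was rich in A and T, with 24.8% G or C against 66.0% before XPNPEP3. The TMEM127 promoter held 1 AGGTCA hexamer, 2 CCAAT boxes and 1 AP-1 motif. A match is a description of the letters and not evidence of a bound factor.

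The lists of the 4 libraries held 23805 and 36302 peaks in PPARα libraries 1 and 2, and 24505 and 27544 in PPARα+ERα libraries 1 and 2. They differed in the material behind a peak. Summits had a median of 35 and 50 fragments in the PPARα libraries, against 9 and 10 in the PPARα+ERα libraries. The local background that the peak caller set for a summit is given here as a multiple of the genome-wide level of its library. It had a median of 13.5 and 15.7 in the PPARα libraries and 1.64 and 1.57 in the PPARα+ERα libraries. Peaks whose background was at most 3 times the genome-wide level of their library made up 16% and 12.8% of the PPARα lists and 74.3% and 76.9% of the PPARα+ERα lists. These groups did not overlap, and with 2 libraries a side the exact two-sided permutation test cannot give a p below 0.333, or 0.407 after Benjamini-Hochberg adjustment over the 11 library measures compared. A missing peak therefore says that none was called at that library's depth and background, not that PPARα was absent.

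The same contrast ran through the regions themselves. In PPARα+ERα-only regions a summit had a median of 10.5 fragments, and the median background was 1.57 times the genome-wide level. In PPARα-only regions the medians were 47 fragments and 15.2 times. All peaks lay on low background in 78.5% of PPARα+ERα-only regions (95% Wilson interval 77.6 to 79.3) and in 10.3% of PPARα-only regions (9.87 to 10.8). Counting low-background peaks alone left 6632 PPARα+ERα-only and 1740 PPARα-only regions, so the order of the 2 counts turned with this choice. Among the 8436 and 16726 regions, the part played by background in the calls was not tested.

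The count of regions also moved with single libraries, by the construction of the rule. Without PPARα+ERα library 1 there were 26242 PPARα+ERα-only regions, and without library 2 there were 23341. Without PPARα library 1 the PPARα-only regions numbered 35003. Of the remaining regions, 32702 had a peak in 1 PPARα+ERα library alone and 23737 in 1 PPARα library alone, and 164 (0.196%) had a peak in all 4 libraries.

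Joining peaks by a single base decided few regions. Peaks of both groups met in 2038 regions, with a median overlap of 333 bp, and 19 of these were joined by at most 50 bp. Just outside the threshold, 2 PPARα+ERα-only regions and 4 PPARα-only regions lay within 100 bp of a peak of the other group. Regions of opposite direction were neighbours at times. A PPARα-only region lay within 1 kb of 69 PPARα+ERα-only regions (0.818%) and within 10 kb of 1030 (12.2%).

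The strongest PPARα+ERα-only regions included those at COG4, XPNPEP3, PSMD1 and NOP56. Regions were ranked by the lower of the libraries' percentiles of −log10 q within their own list, so that a high rank needs both libraries. The fold quoted for each library is the authors' enrichment of the summit over its local background, and folds of different libraries are not set against each other. By the rule, none of these regions had a peak in either PPARα library.

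The first was the start of COG4, a subunit of the tether that captures vesicles at the Golgi, at chr16:70523160-70523642, with 63 and 66 fragments at the summit. Its summit lay 94 bp downstream of the COG4 start and the region also lay near an end of SF3B3, a subunit of the splicing complex that recognises the branch point. The next covered the start of XPNPEP3, a mitochondrial aminopeptidase, with the summit 51 bp upstream. That region differed from the first in its background, 30.8 times the genome-wide level in both libraries, and it had PPARα+ERβ peaks of 9.69- and 8.29-fold. The region at PSMD1, which encodes a subunit of the proteasome cap, had its summit 294 bp upstream of the start. At NOP56, whose product methylates ribosomal RNA with other box C/D proteins, the summit stood 943 bp into the gene. It had 27 and 39 fragments over a background of 1.00 times the genome-wide level.

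Lower in the first 30 protein-coding genes stood SEH1L, TXNDC11 and RPN1. SEH1L, a nucleoporin, had a region at chr18:12948423-12949033 of 9.56- and 7.37-fold, 830 bp into the gene. TXNDC11, a thioredoxin-domain protein of the endoplasmic reticulum, had one of 4.38- and 4.53-fold at 899 bp upstream. That region had a local background of 50.1 and 45.0 times the genome-wide level and therefore a low fold for its rank. RPN1, a subunit of the oligosaccharyltransferase that glycosylates new proteins, had a region of 17.5- and 13.5-fold over one of its ends, which also had a peak in 1 PPARα+ERβ library.

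Of the same 30 genes, SF3B1, HNRNPD, PSMD12, ANG and RAD52 had summits within 2 kb of a start site. SF3B1, another subunit of the branch point complex, had a region of 15.1- and 16.9-fold at 1994 bp into the gene. HNRNPD, which binds AU-rich elements of messenger RNA, had one of 18.7- and 15.5-fold at 1642 bp upstream. A second proteasome cap gene, PSMD12, had a region of 13.5- and 14.9-fold at 1238 bp into the gene. ANG and RNASE4, secreted ribonucleases that share a locus, had a region of 12- and 12.6-fold. The region between ERC1 and RAD52, the latter a protein of homologous recombination, had folds of 14.2 and 19.2 and a summit 399 bp upstream of RAD52.

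Other regions of high rank included GHDC, with 15.8- and 16.2-fold at 133 bp into the gene, and TPD52L2, with 9.74- and 9.69-fold at 401 bp upstream. CGREF1 and KHK, the enzyme that phosphorylates fructose, shared a region of 11.2- and 11.9-fold. Around the start of MED1, the Mediator subunit that binds liganded nuclear receptors, a region lay at chr17:39451160-39451572. It had 27 and 38 fragments over a background of 3.85 times the genome-wide level. Its summit lay 163 bp upstream of the start, and the region spanned all 300 bases of the promoter window. APPBP2, a protein that binds the amyloid precursor protein, had a region of 13.7- and 16.2-fold at 1515 bp into the gene.

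**Figure D1:**
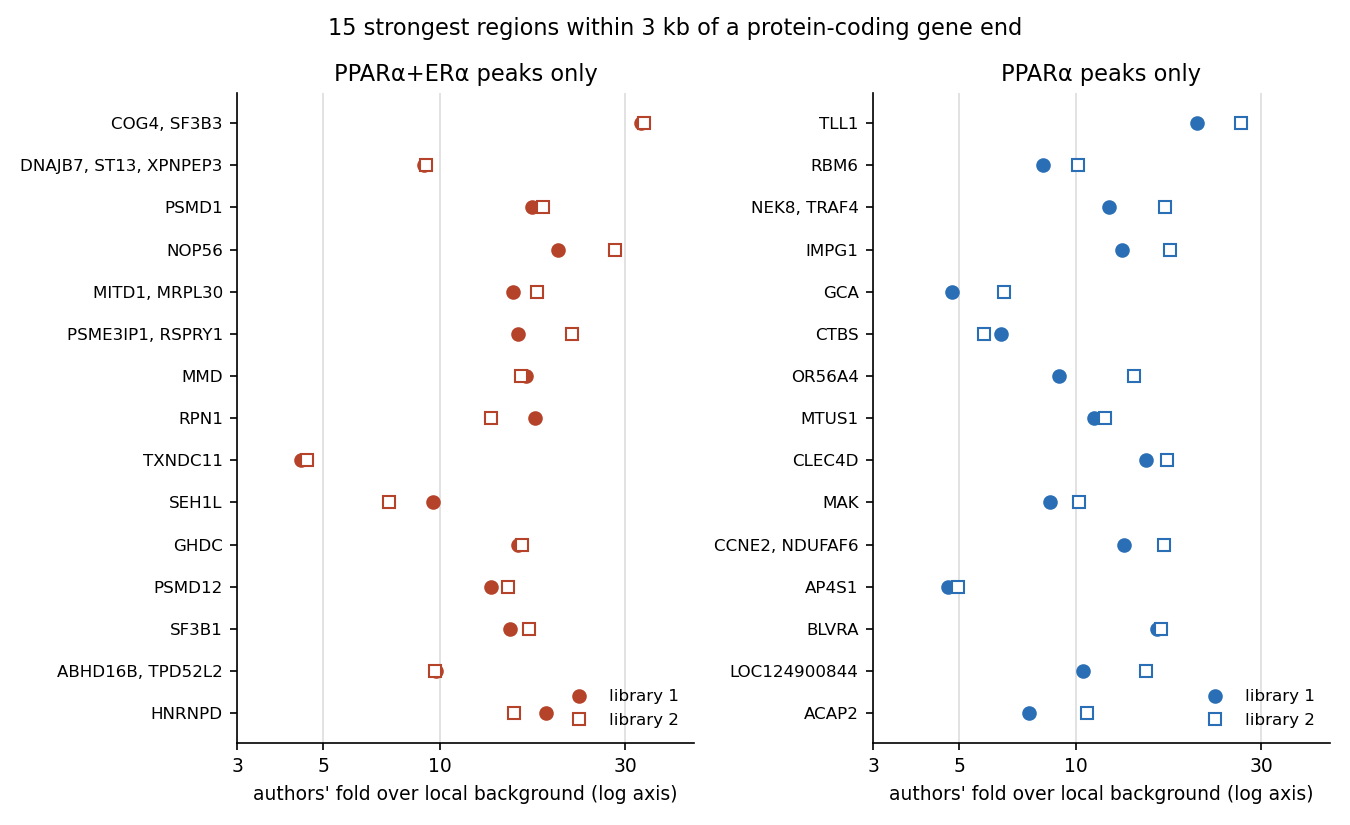
The authors' fold over local background (log axis) is plotted for the first 15 regions of each direction within 3 kb of a protein-coding gene end, named by their genes, with a filled circle for library 1 and an open square for library 2. In rank order from the top, TXNDC11 stands out on the left with folds of 4.38 and 4.53, and COG4 with SF3B3 lies farthest right at 32.9 and 33.5.

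The strongest PPARα-only regions lay at genes of many roles, fewer of them within 1 kb of a start site. The first was near the end of TLL1, a protease that trims collagen precursors, with its summit 232102 bp from the start. At RBM6, an RNA-binding splicing regulator, the summit lay 635 bp into the gene. A region upstream of TRAF4, an adaptor of cytokine receptor signalling, and at NEK8, a kinase of cilia, had its summit 907 bp from the TRAF4 start. IMPG1, a proteoglycan of the retinal matrix, had a region at chr6:76073255-76073700 of 13.1- and 17.4-fold, 872 bp upstream. None of these regions had a peak in a PPARα+ERα library, and all of them had peaks in both PPARα+ERβ libraries.

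Enzymes were among the genes of lower rank. BLVRA, which reduces biliverdin to bilirubin, had a PPARα-only region of 16.1- and 16.5-fold at 2004 bp into the gene. GALM, the mutarotase of galactose metabolism, had one of 8.59- and 8.32-fold, and CTBS, a lysosomal enzyme of glycoprotein breakdown, one of 6.39- and 5.79-fold. LCLAT1, an acyltransferase of cardiolipin remodelling, had a region of 4.70- and 6.94-fold at 2107 bp into the gene. SRXN1, which restores oxidised peroxiredoxins, had one of 3.54- and 4.47-fold over a high background of 62.6 and 61.6 times the genome-wide level. GTF2H1, a subunit of the repair and transcription factor TFIIH, and its neighbour HPS5 shared a region of 14.3- and 22.4-fold.

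The other genes had varied roles. MAK, a kinase of photoreceptor cilia, had a PPARα-only region of 8.54- and 10.2-fold and CEP89, a centriole protein, one of 13.9- and 21.8-fold. CLEC4D, a C-type lectin of myeloid cells, had one of 15.2- and 17.1-fold 1 bp from the gene. RSPO3, a secreted amplifier of Wnt signalling, had one of 5.16- and 5.91-fold, and E2F4, a repressor of cell cycle genes, shared one of 6.60- and 8.27-fold with ELMO3. OR56A4, an olfactory receptor, had one of 9.01- and 14.1-fold at 712 bp from the gene. A peak near a gene is a position and says nothing of its expression.

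Regions of the 2 directions differed in how their strength related to start sites. A start site is the start of one of the 15811 protein-coding genes in the RefSeq promoter table used, which covers no gene of chromosome 8, so regions there were set aside. A start site lay within 1 kb of 188 of 8087 PPARα+ERα-only regions, or 2.32% (95% Wilson interval 2.02 to 2.68). The count was 224 of 15962 PPARα-only regions, or 1.40% (1.23 to 1.60). Over regions of any class the share was 1.51% (1205 of 79714, 1.43 to 1.60), close to that of PPARα-only regions. It was 1.48% for regions with a peak in 1 PPARα+ERα library and 1.30% for regions with a peak in 1 PPARα library. These shares of regions run from the nearer edge of the region. Over all peaks of a library the distance was taken from the summit, so those shares are not set against the shares of regions. They were 1.06% and 1.07% in the PPARα lists and 1.37% and 1.43% in the PPARα+ERα lists. The libraries of the groups did not overlap in this share of summits (exact two-sided permutation p = 0.333 for 2 libraries against 2, the smallest the design allows).

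Strength separated the directions further. Among PPARα+ERα-only regions the share within 1 kb of a start was 1.19% below percentile 50, 2.39% from 50 to 90, 7.60% from 90 to 99 and 22.2% above 99. The highest band held 18 of 81 regions (14.5 to 32.4). Among PPARα-only regions the shares were 1.36%, 1.39%, 1.60% and 4.71%, the last being 4 of 85 (1.85 to 11.5). The share rose with rank in the first direction and stayed near its level in the second until the top band. On low background alone, the top band of PPARα+ERα-only regions held 9 of 56 (16.1%, 8.69 to 27.8) and that of PPARα-only regions 0 of 9, which allows a share of up to 29.9% by the Wilson interval.

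**Figure D2:**
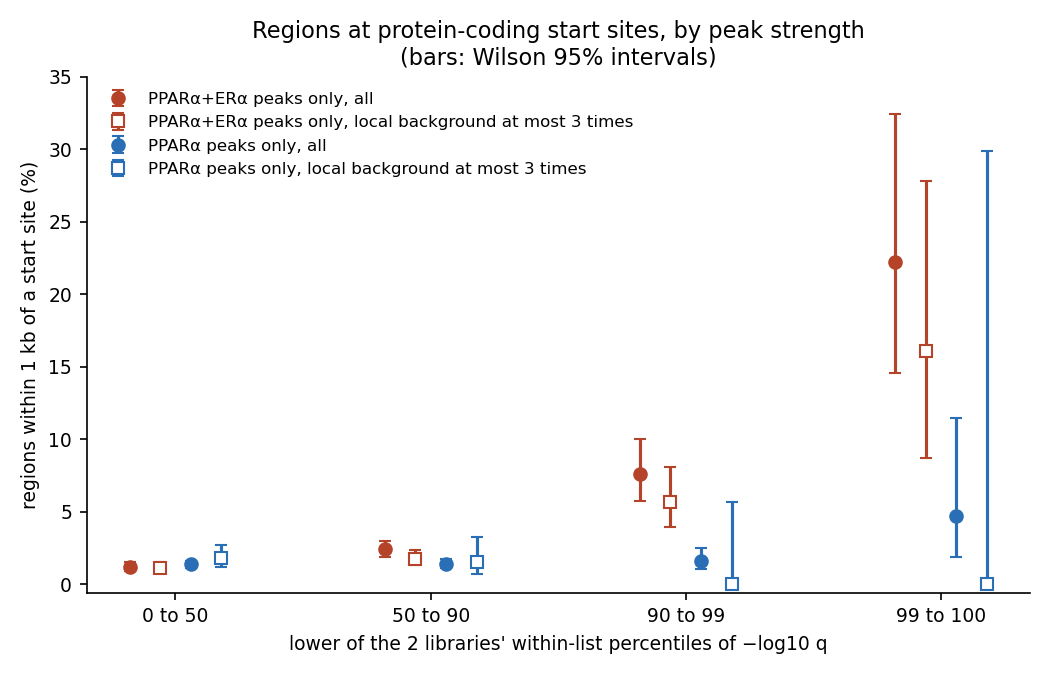
The percentage of differing regions within 1 kb of a protein-coding start site is plotted against bands of within-list percentile of −log10 q, by direction, with 95% Wilson intervals. PPARα+ERα-only regions go from 1.19% in the lowest band to 22.2% in the highest, and PPARα-only regions from 1.36% to 4.71%.

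The same order held for gene ends of any kind. The share within 3 kb of an end of any annotated gene rose from 16.8% to 19.7%, 29.1% and 42.7% over the 4 bands of PPARα+ERα-only regions, and went from 17.9% to 17.5%, 17.1% and 12.5% for PPARα-only regions. Over all ranks the shares were close, 18.99% (18.2 to 19.8) of PPARα+ERα-only and 17.6% (17.1 to 18.2) of PPARα-only regions, beside 18.3% of all 83639 regions. Keeping low-background peaks alone turned that order, to 17.8% and 20.6%.

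Where the strand of the gene is in the promoter table, the end nearer the region was the 5′ end in 481 of 796 pairs of PPARα+ERα-only region and protein-coding gene (60.4%, 57.0 to 63.8). It was the 5′ end in 612 of 1175 PPARα-only pairs (52.1%, 49.2 to 54.9). Genes in these pairs were of like length, with medians of 29176 bp and 29779 bp.

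Summits were not at their densest on the start itself. Within 3 kb of a start there were 451 PPARα+ERα-only and 663 PPARα-only summits. The 250 bp on either side of the start held 23 summits of each direction, a density of 46.0 per kb in both. From 250 to 1000 bp upstream the density was 101 per kb for PPARα+ERα-only regions (76 summits) and 109 for PPARα-only regions (82 summits). Densities per kb are counts, not divided by the 8087 and 15962 regions. Per 1000 regions, the 250 bp before the start held 1.36 PPARα+ERα-only and 0.752 PPARα-only summits. The 250 bp after it held 1.48 and 0.689, and the bin from 500 to 250 bp upstream 3.59 and 1.32. The highest PPARα+ERα-only bin was farther off, from 1500 to 1750 bp downstream, with 4.08 against 1.57 for PPARα-only regions. Above percentile 90, PPARα+ERα-only summits had a density of 24.0 per kb within 250 bp of the start (12 summits) and 42.7 from 250 to 1000 bp upstream (32 summits), against 10.0 and 9.50 from 1 to 3 kb upstream and downstream. From 250 to 1000 bp downstream their density was 20.0 per kb (15 summits). PPARα-only summits of that rank had 6.00 per kb within 250 bp (3 summits) and 6.67 from 250 to 1000 bp upstream (5 summits). Their highest density, 16 per kb (12 summits), was from 250 to 1000 bp downstream, and it was 5 and 10.5 per kb from 1 to 3 kb upstream and downstream. The high-ranked PPARα+ERα-only summits were thus densest just upstream of starts and the PPARα-only summits of that rank just downstream, the latter from few summits.

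**Figure D3:**
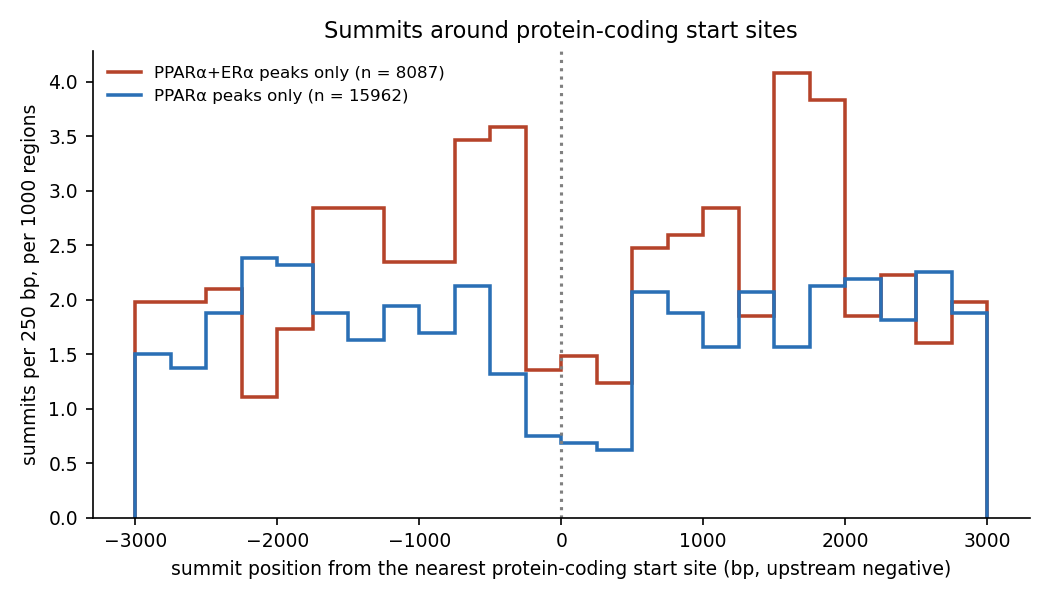
Summits per 1000 regions in bins of 250 bp are plotted against distance (bp) from the nearest protein-coding start site, upstream negative, for 8087 PPARα+ERα-only and 15962 PPARα-only regions. From 500 to 250 bp upstream the values are 3.59 and 1.32, and both directions have a trough on the start itself. The highest PPARα+ERα-only bin, at 4.08, is from 1500 to 1750 bp downstream.

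Promoter windows, 250 bases before to 50 after a start, were covered at least in part by 50 PPARα+ERα-only regions (52 genes) and 47 PPARα-only regions (47 genes). Those of the first direction, beyond COG4, XPNPEP3 and MED1, included the window of ZFHX2, a transcription factor with zinc fingers and homeodomains, with 14.4- and 19.7-fold at chr14:23551781-23552304. They also included PSME3IP1, a regulator of the proteasome activator PSME3, with its summit 5 bp into the gene. Those of the second included PHF3, a regulator of RNA polymerase II elongation, with 9.74- and 10.9-fold at chr6:63646462-63646899 and a summit 214 bp into the gene. TMEM127, a membrane protein that restrains mTOR signalling, had 3.31- and 4.98-fold, and CELF2, an RNA-binding splicing regulator, had 5.31- and 6.51-fold. PDZRN3, a ubiquitin ligase, had 8.17- and 10.0-fold, SPRY1, which restrains growth factor signalling, 4.99- and 7.69-fold, and CCNT1, the cyclin of the elongation factor P-TEFb, 3.64- and 4.54-fold.

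Known receptor elements were scarce in all these windows. The PPAR response element AGGTCANAGGTCA was in 0.0226% of all 22131 protein-coding windows and in none of the 59 and 50 windows covered by PPARα+ERα-only and PPARα-only regions. The estrogen response element GGTCANNNTGACC was in 0.0361% of all windows and in none of the covered ones. The hexamer AGGTCA was in 11.9% of the windows covered by PPARα+ERα-only regions, in 12% of those covered by PPARα-only regions and in 11.9% of all. CCAAT boxes were in 33.9%, 32.0% and 34.6% in the same order. The GC box GGGCGG was in 52.5%, 36% and 56.3%, and median GC content was 58.0%, 51.8% and 62.3%. The ETS motif CCGGAAG was in 20.3%, 16% and 12.8%. Where a start lay within 1 kb of a region, ETS was in 23.6% (18.7 to 29.4) of windows for PPARα+ERα-only regions. For PPARα-only regions that share was 17.3% (13.3 to 22.3). Exact letters were searched on both strands, degenerate forms were not, and the exact hexamer also occurs within the PPAR response element.

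The YY1 element AAGATGGC, known from housekeeping promoters just downstream of the start, was in 9 of 59 windows covered by PPARα+ERα-only regions (15.3%, 8.24 to 26.5). It was in 2 of 50 windows covered by PPARα-only regions (4%, 1.10 to 13.5) and in 3.54% of all windows. The first 9 windows belong to 8 genes and 8 regions, since PEX19 has 2 annotated starts that share 1 copy. In the wider set of genes with a start within 1 kb of a region, the element was in 8.02% of windows for PPARα+ERα-only regions and 5.54% for PPARα-only regions. It began within 30 bases after the start in 7 of the 59 windows (11.9%), in 1 of the 50 (2%) and in 1.97% of all. These sequences are shown because, of the 11 motifs, this one had the share farthest above that of all promoters in the windows covered by PPARα+ERα-only regions, and the motif and genes were picked after their values were seen. Each line is 30 bases, 5′ to 3′ on the gene's strand, from RefSeq (GRCh38.p14), with the element in capitals.
COG4, chr16:70523516-70523545, minus strand: gaatggggaccAAGATGGCggaccttgatt
MED1, chr17:39451230-39451259, minus strand: ttccgttggggAAGATGGCggcggcctcga
SMYD5, chr2:73214253-73214282, plus strand: gaggcgcgcccAAGATGGCggcctccatgt
GADD45GIP1, chr19:12957197-12957226, minus strand: cccgcacagccAAGATGGCggcgtccgtgc
EXOSC8, chr13:37000792-37000821, plus strand: gcgcgggcgggAAGATGGCggctgggttca
PEX19, chr1:160285109-160285138, minus strand: tcggaggtagcAAGATGGCcgccgctgagg
MCMBP, chr10:119872959-119872988, minus strand: tgcccgtctccAAGATGGCggcgccgccgc
YLPM1, chr14:74763201-74763230, plus strand: gaacccaaaggAAGATGGCaaccacgagtc
All 8 copies read in the direction of the gene. They began 20 bases after the start base of COG4, 15 after that of MED1, 19 after that of SMYD5, 8 after that of GADD45GIP1 and 17 after that of EXOSC8. In PEX19 the copy began 6 bases after 1 start and 24 after the other, and in MCMBP and YLPM1 it began 134 and 104 bases before the start. SMYD5 encodes a methyltransferase, GADD45GIP1 a protein of the mitochondrial ribosome, EXOSC8 a subunit of the RNA exosome, PEX19 a chaperone of peroxisomal membrane proteins and MCMBP a partner of the replicative helicase. The regions at COG4, MED1, SMYD5, GADD45GIP1 and MCMBP covered the element, and those at EXOSC8, PEX19 and YLPM1 ended short of it.

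Values behind these windows were of several sizes. SMYD5 had 24 and 21 fragments over a background of 1.49 times the genome-wide level in both PPARα+ERα libraries. PEX19 had 15 and 16 fragments over a background of 1.02 times, and EXOSC8 had 26 and 32 over 5.48 times. YLPM1 ranked low, with 6 and 8 fragments over a background of 1.8 times. The region at GADD45GIP1, with 60 and 56 fragments over 18.0 and 24.4 times, had peaks in both PPARα+ERβ libraries as well. The PPARα-only windows with the element belonged to TAF5, a subunit of TFIID, where it began 11 bases after the start, and PAGR1, a partner of the MLL3 and MLL4 complexes, where it read against the gene 165 bases before the start.
TAF5, chr10:103367976-103368005, plus strand: ggctcagccgcAAGATGGCggcgctggcgg
PAGR1, chr16:29815976-29816005, plus strand: acttcccggtgGCCATCTTtactgtgggct
Both of these regions stood on high background, 42.9 and 41.0 times the genome-wide level at TAF5 and 62.6 and 61.6 times at PAGR1. With 8 regions and 2 regions behind the shares, the intervals of the covered windows overlap.

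Protein-coding genes were counted as near when 3 kb or less parted a differing region from one of their ends. There were 922 with a PPARα+ERα-only region, 4.62% of the 19970 in the table, and 1407 with a PPARα-only region, 7.05%. Shares in gene lists are read beside these percentages and were not tested, and the lists were counted without regard to rank. Of 37 lists, 20 lay above the first background and 22 above the second.

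Lists of lipid metabolism, the textbook domain of PPARα, differed in their shares. Of 40 genes of fatty acid oxidation, 5 (12.5%, against 4.62% of all genes) had a PPARα+ERα-only region and 3 (7.5%, against 7.05%) a PPARα-only region near an end. ACSL3, which activates long-chain fatty acids, had folds of 9.19 and 7.26 in the PPARα+ERα libraries, with its summit 517 bp upstream of the start. ETFA, the electron carrier of acyl-CoA dehydrogenases, had folds of 8.83 and 8.08. Of 35 PPAR targets of lipid handling and signalling, none had a PPARα+ERα-only region and 1 (2.86%) had a PPARα-only region, the lectin gene MBL2 with 5.60- and 5.67-fold.

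Genes of sterol synthesis were close to the background. Of 38 genes of cholesterol and fatty acid synthesis, 2 (5.26%) had a PPARα+ERα-only region, among them FDPS, which makes farnesyl diphosphate, with 6.33- and 3.80-fold. A PPARα-only region lay near 3 (7.89%), among them CYP51A1, which demethylates lanosterol, with 8.22- and 7.73-fold. Of 26 genes of bile acid and sterol handling, 1 (3.85%), AKR1C4, had a PPARα-only region and none a PPARα+ERα-only region.

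Among 51 plasma protein and apolipoprotein genes, which hepatocytes secrete, 5 (9.80%) had a PPARα+ERα-only region and 3 (5.88%) a PPARα-only region. Over all protein-coding genes the shares were 4.62% and 7.05%. HPX, the plasma carrier of haem, had 6.48- and 7.75-fold in the PPARα+ERα libraries, and F5, coagulation factor V, had 4.74- and 11.5-fold. The libraries of F5 differed more from each other than those of HPX. ITIH2, a hyaluronan-binding inhibitor of trypsin, had 5.16- and 4.40-fold in the PPARα libraries. Of 55 cytochrome P450 genes, 2 (3.64%) had a PPARα+ERα-only region and 1 (1.82%) a PPARα-only region, both below the background. The 2 were CYP4F2, which hydroxylates fatty acids, with 5.76- and 7.05-fold, and CYP1B1, which hydroxylates estradiol, with 4.66- and 6.02-fold.

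Glucose metabolism was split between the directions. PPARα+ERα-only regions lay near 4 of 40 genes (10%, against 4.62% of all protein-coding genes). Among them were ALDOA, aldolase A, with 6.99- and 8.89-fold, and TPI1, triosephosphate isomerase, with 6.48- and 9.16-fold. PCK2, the mitochondrial enzyme that makes phosphoenolpyruvate, had 4.99- and 4.75-fold. PPARα-only regions lay near 3 (7.5%, against 7.05%). They were PFKFB3, which sets the level of fructose 2,6-bisphosphate, with 9.45- and 19.1-fold, FBP1, the gluconeogenic phosphatase, with 5.88- and 7.01-fold, and GPI, glucose-6-phosphate isomerase, with 6.80- and 8.21-fold.

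Nuclear receptors had more PPARα-only than PPARα+ERα-only members, as did all protein-coding genes, and their coregulators had fewer. Of 48 nuclear receptor genes none had a PPARα+ERα-only region near an end and 4 (8.33%) had a PPARα-only region. Over all protein-coding genes the shares were 4.62% and 7.05%. The 4 were RARB, a retinoic acid receptor, with 5.20- and 6.88-fold, NR1D2, the clock repressor REV-ERBβ, with 3.99- and 6.04-fold, RORB with 3.27- and 4.12-fold, and NR6A1 with 2.67- and 2.90-fold. Of 52 coregulator genes, 5 (9.62%) had a PPARα+ERα-only region and 2 (3.85%) a PPARα-only region. Beside MED1, ARID1A, a subunit of the SWI/SNF remodeller, had 7.55- and 7.33-fold in the PPARα+ERα libraries and LCOR, a corepressor that binds liganded receptors, had 5.33- and 5.71-fold. NCOA4 had 2.27- and 2.23-fold in the PPARα libraries and TBL1XR1, a subunit of the NCoR corepressor complex, 2.11- and 2.02-fold. These are counts of 5 or fewer, and no difference between the directions was tested.

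Estrogen-response genes stood near the background, with 2 of 39 (5.13%, against 4.62%) for PPARα+ERα-only and 3 of 39 (7.69%, against 7.05%) for PPARα-only regions. FOS, the immediate early partner of JUN, had 3.80- and 4.19-fold in the PPARα+ERα libraries. ABCA3, a lipid transporter, had 5.01- and 8.51-fold in the PPARα libraries, TFAP2C, a transcription factor of breast epithelium, had 2.75- and 2.84-fold, and XBP1, a factor of the unfolded protein response, had 3.35- and 2.88-fold. Of 27 circadian clock genes, 1 (3.70%) had a PPARα+ERα-only region, the clock kinase CSNK1E with 8.39- and 10.7-fold. PPARα-only regions lay near 4 of the 27 (14.8%, 5.92 to 32.5). They were FBXW11, a subunit of the ubiquitin ligase that acts on PER proteins, with 7.43- and 14.2-fold, BHLHE40 with 3.68- and 2.89-fold, and the receptors NR1D2 and RORB.

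Several lists of housekeeping genes lay above the background in both directions. Of 18 genes of the SF3 and U2 splicing complexes, 4 (22.2%, 9.0 to 45.2) had a PPARα+ERα-only region, SF3B3, SF3B1, SNRPA1 with 6.00- and 8.66-fold, and U2AF2 with 7.19- and 4.23-fold. The PPARα-only regions near 2 of the 18 (11.1%) lay at SF3B1 again, with 3.26- and 5.85-fold, and at SF3A1, with 4.32- and 3.05-fold. Chaperone and heat shock genes had a PPARα+ERα-only region in 12 of 92 (13%, 7.62 to 21.4) and a PPARα-only region in 9 (9.78%). DNAJA1, a cochaperone of HSP70, had 7.25- and 8.18-fold and CCT4, a subunit of the chaperonin that folds actin and tubulin, 9.33- and 6.77-fold in the PPARα+ERα libraries. HSP90AB1, the constitutive cytosolic HSP90, had 8.13- and 12.5-fold in the PPARα libraries.

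Of 86 cytosolic ribosomal protein genes, 10 (11.6%) had a region of each direction, beside backgrounds of 4.62% and 7.05%. RPS10 had 14.2- and 10.7-fold and RPS7 had 8.49- and 11.3-fold in the PPARα+ERα libraries, and RPS13 had 9.48- and 11-fold and RPL6 had 7.51- and 8.30-fold in the PPARα libraries. Of 50 ribosome biogenesis genes, 5 (10%) had a region of each direction, and NOP58, a partner of NOP56, had both. Mitochondrial ribosomal protein genes had a PPARα+ERα-only region in 5 of 79 (6.33%) and a PPARα-only region in 8 (10.1%), and genes of the respiratory chain in 6 (6.90%) and 7 (8.05%) of 87. COX5B, a subunit of cytochrome c oxidase, had 10.6- and 11.5-fold and UQCRC2, a core subunit of the cytochrome bc1 complex, 7.19- and 10.7-fold in the PPARα+ERα libraries.

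Stress and cell cycle genes had more PPARα-only than PPARα+ERα-only members, as did all protein-coding genes (7.05% and 4.62%). Of 31 genes of the unfolded protein and oxidative stress responses, 6 had a PPARα-only region (19.4%, 9.19 to 36.3) and 1 (3.23%) a PPARα+ERα-only region. The 6 were SRXN1, XBP1, GPX4, which reduces lipid peroxides, with 7.05- and 6.50-fold, PDIA4, a disulphide isomerase, with 4.75- and 7.95-fold, SOD2, the mitochondrial superoxide dismutase, with 4.24- and 3.56-fold, and ATF4, the factor of the integrated stress response, with 6.30- and 4.77-fold. The 1 was PDIA3, a disulphide isomerase of glycoprotein folding, with 9.99- and 9.75-fold. Of 55 cell cycle and replication genes, 2 (3.64%) had a PPARα+ERα-only region. They were the helicase subunit MCM2 with 9.35- and 11.3-fold and the origin protein ORC2 with 7.25- and 7.01-fold. PPARα-only regions lay near 5 of the 55 (9.09%), among them PCNA, the sliding clamp, with 6.21- and 7.30-fold.

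Genes of other tissues were also covered, by PPARα-only regions more than by PPARα+ERα-only regions in 2 large families. That is also the order over all protein-coding genes. Of 390 olfactory receptor genes, 7 (1.79%, 0.872 to 3.66) had a PPARα+ERα-only region and 22 (5.64%) a PPARα-only region, both below the background. Of 149 keratin and keratin-associated genes, 2 (1.34%) and 6 (4.03%) did, also below the background. Of 7 marker genes each of adipocytes and muscle, none had a region of either direction. Of 17 hepatocyte markers, 2 (11.8%) had a PPARα+ERα-only and 1 (5.88%) a PPARα-only region. RBFOX3, a neuronal marker, and LYZ, a myeloid marker, each had regions of both directions.

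**Figure D4:**
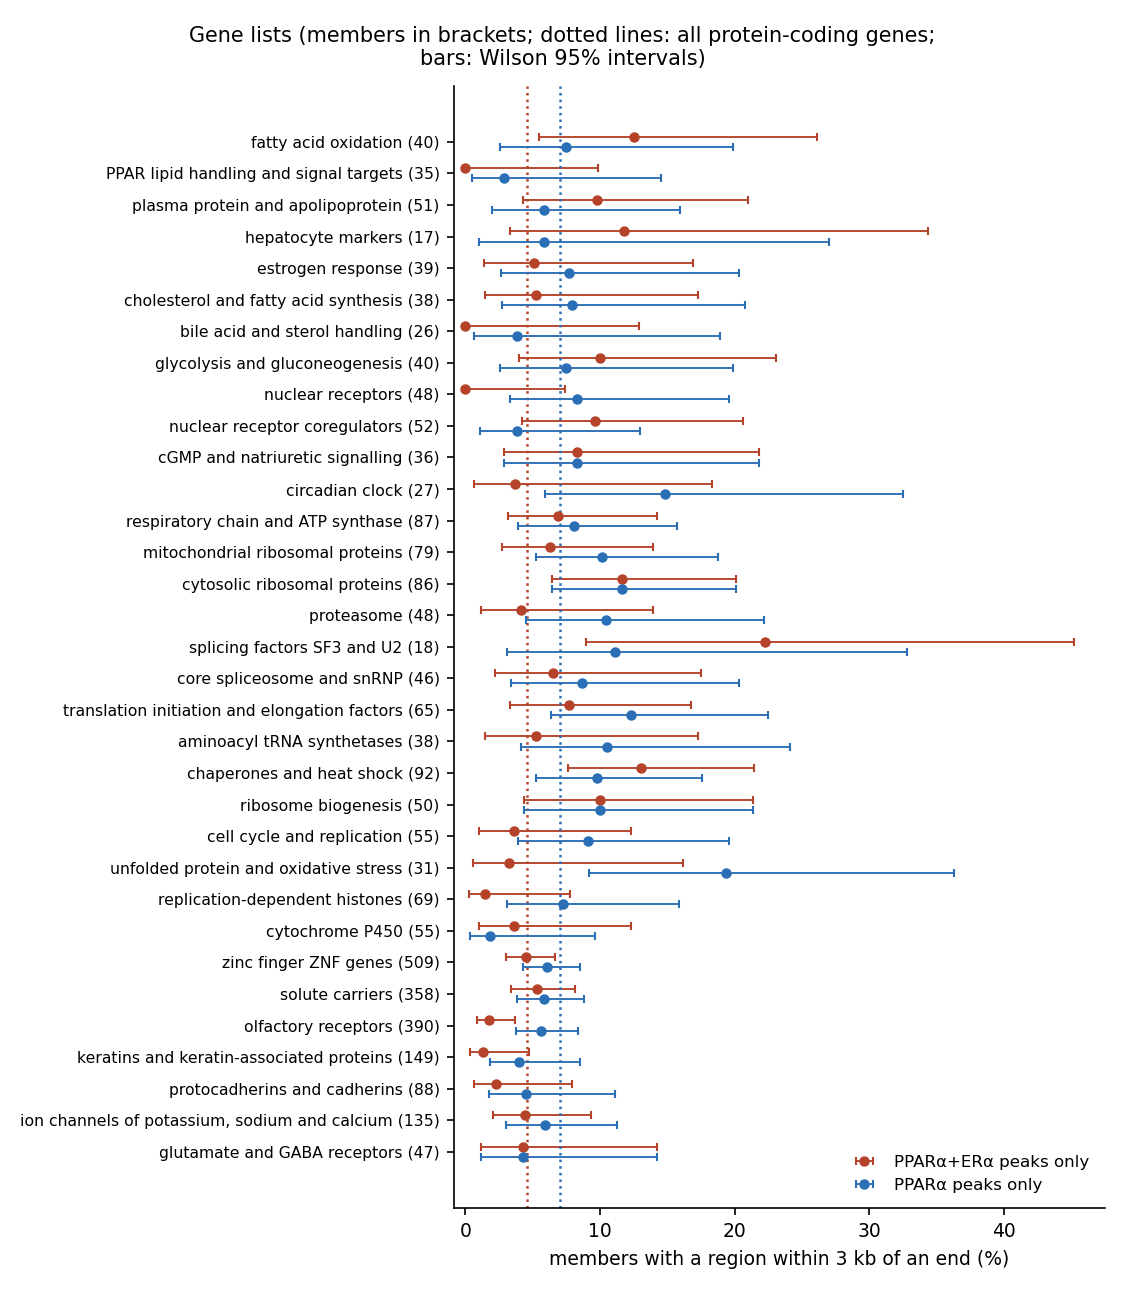
The percentage of members with a differing region within 3 kb of an end is plotted by gene list and direction, for lists of 15 or more members, with vertical lines at the 4.62% and 7.05% found over all protein-coding genes. The SF3 and U2 list is highest for PPARα+ERα-only regions at 22.2% and the unfolded protein and oxidative stress list for PPARα-only regions at 19.4%.

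Some genes had regions of both directions near their ends, 68 protein-coding genes in all. They made up 7.38% of the genes near PPARα+ERα-only regions and 4.83% of those near PPARα-only regions. These shares are close to the 7.05% and 4.62% of all protein-coding genes near a region of the other direction. At SSU72, a phosphatase of the RNA polymerase II tail, the PPARα+ERα-only region (chr1:1576836-1577226) had 11.7- and 11.6-fold and a summit 2017 bp upstream of the start. The PPARα-only region beside it (chr1:1575994-1576383) had 4.10- and 4.76-fold and a summit 1271 bp upstream. At TPD52L2 the PPARα+ERα-only summit lay 401 bp upstream and the PPARα-only summit, of 6.75- and 9.99-fold, 1491 bp into the gene. DHPS, which starts hypusine synthesis on eIF5A, had a PPARα+ERα-only summit 637 bp upstream, of 3.27- and 3.99-fold, and a PPARα-only summit 853 bp into the gene, of 4.63- and 9.02-fold.

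Between ATAD2B and UBXN2A the 2 summits lay 1524 and 2464 bp upstream of the ATAD2B start, of 10.1- and 9.86-fold in the PPARα+ERα libraries and 8.02- and 11.3-fold in the PPARα libraries. At other genes the regions lay at opposite ends. CDH1, the epithelial cadherin, had a PPARα+ERα-only region of 10.1- and 14.8-fold near one end, at chr16:68738620-68738951, and a PPARα-only region of 9.55- and 11.4-fold near the other, at chr16:68833517-68833975. CEP250, a centrosome linker protein, had a PPARα+ERα-only region of 10.8- and 9.07-fold and a PPARα-only region of 16.3- and 10.3-fold. SEC24A, a cargo receptor of COPII vesicles, had a PPARα+ERα-only region of 8.07- and 9.18-fold at 620 bp upstream and a PPARα-only region of 3.66- and 4.27-fold at its other end.

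Most differing regions lay far from any gene end. From 10 to 100 kb away were 52.1% of both classes, and over 100 kb away were 515 PPARα+ERα-only regions (6.10%, 5.61 to 6.64) and 1134 PPARα-only regions (6.78%, 6.41 to 7.17). The median distance to the nearest end was 13774 bp and 14275 bp. Inside protein-coding genes were 50.8% (49.7 to 51.9) of PPARα+ERα-only and 48.7% (47.9 to 49.4) of PPARα-only regions. Exons and introns were not used here, so positions are given relative to gene spans.

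The highest-ranked PPARα+ERα-only region over 100 kb from a gene end was at chr2:123354623-123355006, with 14.9- and 12.7-fold, 281142 bp from the long noncoding gene LINC01826. Others lay inside TTC6 (13- and 12.1-fold) and inside PTPRD, a receptor phosphatase (10.5- and 14.9-fold). One stood near the noncoding gene PCGEM1 (11.5- and 17.6-fold) and one inside CDH13, the cadherin that binds adiponectin (10.8- and 11.3-fold). The highest PPARα-only region of this kind lay inside GALNT13, an enzyme that starts O-glycans, at chr2:153608502-153608933, with 4.39- and 5.93-fold. Others lay inside THSD7A (12.1- and 12.7-fold), BNC2, a zinc finger factor (8.22- and 9.81-fold), ERBB4, a receptor of neuregulins (21.4- and 24.0-fold), and NEGR1, a neuronal adhesion protein (9.80- and 11.6-fold).

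Long genes collected many regions. Of 19970 protein-coding genes, 2908 had at least 1 PPARα+ERα-only region within their span, 4782 a PPARα-only region and 1626 both. The number with both was not tested. MACROD2, a deacylase of ADP-ribosylated proteins on chromosome 20, held 33 PPARα+ERα-only and 15 PPARα-only regions, or 1.60 and 0.729 per 100 kb. Its count was the highest of any gene for PPARα+ERα-only regions. PTPRD held 14 and 15, PLCB1, a phospholipase on chromosome 20, held 11 and 12, and ROBO1, an axon guidance receptor, held 10 and 12. PPARα-only regions outnumbered the others further at CNTNAP2, a neurexin family protein, with 4 and 22, at LRP1B, a lipoprotein receptor family member, with 8 and 22, and at PRKG1, a cGMP-dependent kinase, with 4 and 16. Against 16726 PPARα-only and 8436 PPARα+ERα-only regions over the genome, MACROD2 departed from the overall proportion one way and CNTNAP2 the other.

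The chromosomes shared this unevenness. Chromosome 20 held 5.84% of PPARα+ERα-only regions (493) and 3.0% of PPARα-only regions (501), a ratio of shares of 1.95. Chromosome 2 held 15.4% and 10.6% (1297 and 1777 regions, ratio 1.45). The ratio was 1.35 for chromosome 16, 1.32 for chromosome 14 and 1.14 for chromosome 6. The X chromosome went the other way, with 0.699% and 2.40% (59 and 402 regions, ratio 0.291), as did chromosome 19 with 1.49% and 2.2% (ratio 0.679). The same was seen over all peaks of each library. Chromosome 20 held 2.88% and 2.78% of the peaks of the PPARα lists and 4.09% and 3.75% of the PPARα+ERα lists, and the X held 2.62% and 2.96% against 1.47% and 1.32%. The groups did not overlap in these shares, and the number of copies of each chromosome was not measured here.

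**Figure D5:**
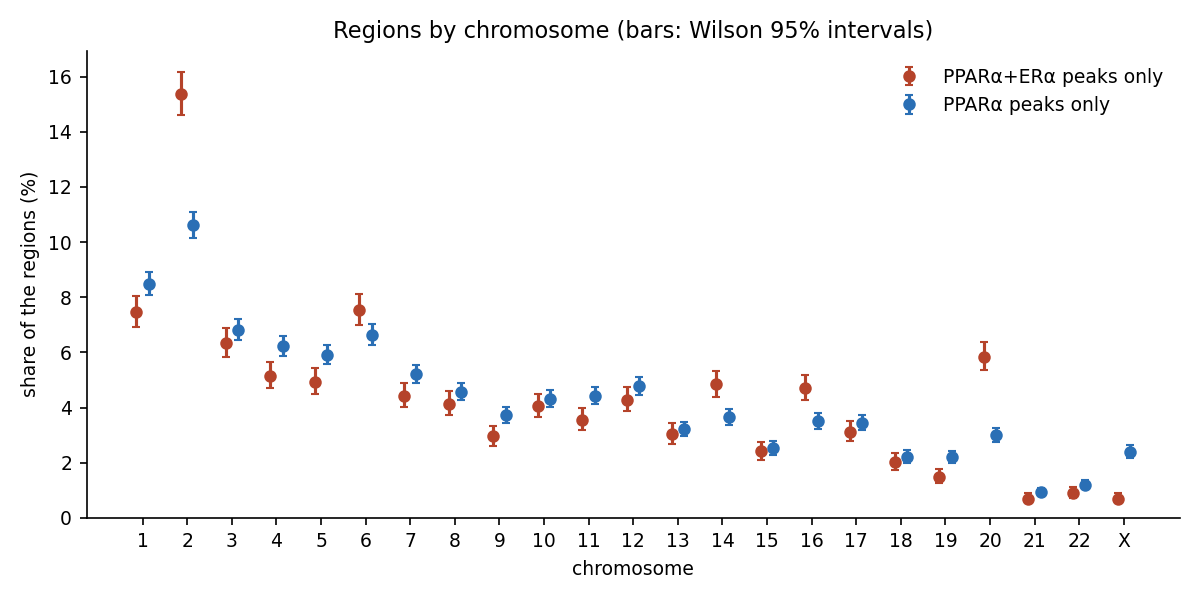
The percentage of differing regions on each chromosome is plotted by direction. Chromosomes 2, 14, 16 and 20 hold larger shares of the PPARα+ERα-only regions and the X and chromosome 19 larger shares of the PPARα-only regions.

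Width set the classes apart in its tail. PPARα+ERα-only regions had a median width of 376 bp and PPARα-only regions of 402 bp, and yet 9.22% (8.62 to 9.86) of the first and 4.36% (4.07 to 4.68) of the second were 600 bp or wider. Per library, peaks had medians of 352 and 374 bp in the PPARα lists and 339 and 341 bp in the PPARα+ERα lists. Peaks of 600 bp or more were 2.81% and 2.84% of the PPARα lists and 4.2% and 4.67% of the PPARα+ERα lists. The groups did not overlap in either measure (exact two-sided permutation p = 0.333, n = 2 libraries each).

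The 4 widest PPARα+ERα-only regions were 1443 bp in SPRED2, an inhibitor of RAS and MAPK signalling, with 16.5- and 16.9-fold, 1435 bp in STAT5B, a transcription factor of growth hormone signalling, with 6.79- and 7.65-fold, 1416 bp in TCAIM with 7.33- and 9.10-fold, and 1415 bp outside any gene on chromosome 16 with 6.28- and 6.88-fold. The widest PPARα-only region that lay near a named coding gene was 1486 bp and stood 4253 bp from ZNRF3, a ubiquitin ligase that removes Wnt receptors, with 4.14- and 6.43-fold. The widest of all, of 1523 bp at chr4:43784841-43786363, had 17.8- and 19.6-fold and lay 18408 bp from the nearest gene.

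Regions with peaks in all 4 libraries were wide. Their median width was 505.5 bp, and 23.2% (17.4 to 30.2) of the 164 were 600 bp or wider. A region spans every peak merged into it, so joining peaks of 4 libraries widens it by construction. The strongest single peaks in these regions had median widths of 402.5 and 399 bp in the PPARα libraries and 381.5 and 375 bp in the PPARα+ERα libraries. The medians were 356 and 394 bp in PPARα-only regions and 350 and 351 bp in PPARα+ERα-only regions. The first by rank lay inside MAPT, which encodes tau, at chr17:45903716-45904399, with 21.4- and 48.7-fold in the PPARα libraries and 11.9- and 18.6-fold in the PPARα+ERα libraries. At the shared start of C6orf52 and PAK1IP1, a regulator of ribosome assembly, the folds were 5.87 and 4.65 in the PPARα libraries and 18.3 and 18.6 in the PPARα+ERα libraries. ARL6IP6 had 19.5- and 18.5-fold and then 10.5- and 8.91-fold in the same order. MLXIP, a glucose-responsive factor that pairs with MLX, had a region 264 bp upstream of its start with 5.18- and 7.86-fold and then 5.71- and 4.96-fold.

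The 2 classes met the PPARα+ERβ libraries very differently. Those libraries were not used to choose the regions. Both had a peak in 1.13% (0.922 to 1.37) of PPARα+ERα-only regions, 35.4% (34.6 to 36.1) of PPARα-only regions and 75.0% (67.9 to 81.0) of regions with peaks in all 4 libraries. Over all 83639 regions this share was 10.8%. At least 1 of the PPARα+ERβ libraries had a peak in 5.58% (5.11 to 6.09), 68.0% (67.3 to 68.7) and 93.9% (89.1 to 96.7) in the same order, beside 26.2% of all 83639 regions. Median local background was 15.2 times the genome-wide level in PPARα-only regions and 1.57 times in PPARα+ERα-only regions. It was 2.51 times in regions with peaks in all 4 libraries, a different order from that of the shares. The part of background was not tested.

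Differing regions also lay within the receptor genes PPARA and ESR1. The span of PPARA held 2 PPARα-only regions, of 3.69- and 3.83-fold at chr22:46194247-46194583 and of 4.82- and 4.44-fold at chr22:46218835-46219249. ESR1, the ERα gene, held 2 PPARα+ERα-only regions, of 5.4- and 5.62-fold at chr6:151670451-151670777 and of 7.33- and 7.15-fold at chr6:151739860-151740300. It also held 3 PPARα-only regions, of which that at chr6:151770028-151770557 had 5.10- and 6.67-fold. ESR2, the ERβ gene, held none of either direction.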

How the data were processed

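Chromatin of HepG2 cells was precipitated with an antibody to PPARα, and a peak list of each of 4 libraries was analysed, with the 2 PPARα+ERβ lists for overlap only. A sample without antibody was not analysed here. Per the submitters' processing notes, the tools were MACS2 2.2.7.1, Bowtie 1.0.1, Trim Galore 0.6.4, DiffBind 2.16, ChIPseeker 1.18.0 and HOMER 4.11 and the build hg38. The control of the peak caller is not given in the sources used here. The deposited narrowPeak files hold the authors' score, which is the whole part of 10 times −log10 q, the fold (a ratio of summit to local background), and the deposited −log10 p and −log10 q of the summit. Folds and ranks were used within a list.

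The deposited fold and −log10 p together gave the fragments and local background at each summit, with 1 added to each in the fold and p read from the Poisson distribution. Backgrounds are printed as multiples of the genome-wide level of the library, which is the lowest background in its list. Whole fragment numbers gave back −log10 p within 0.001 for 100% of peaks. These stacks give the precision of a peak, and total read counts were not used. Gene spans came from a RefSeq table of GRCh38.p14 with 59094 genes, 19970 of them protein-coding, and start sites from its promoter table of 22131 windows, which matched 15811 genes and holds none of chromosome 8. Distances run from the region to the nearer gene end, and to the start site in shares of regions within 1 kb. Summit positions, and start-site shares over all peaks of a library, run from summit to start site. Motifs were searched as exact letters on both strands.

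Genes were named by rank: the lower of the libraries' within-list percentiles of −log10 q. The rule took the first 30 protein-coding genes near a region, the first 10 promoters, 10 far regions, 8 gene spans, 10 genes of both directions, 8 shared regions, 4 widest regions, and up to 6 members per list. Of 2975 listed symbols 1 was unmatched. Members and lists were chosen with earlier results of these data known. Intervals of shares are 95% Wilson intervals. They treat regions as independent and cover counting error alone. On simulated lists the script returned 100% of 200 planted regions per class. Software was Python 3.11.15 with SciPy 1.17.1, NumPy 2.4.6, Matplotlib 3.10.9 and pandas 2.3.3. Alternatives covered how peaks were joined, the q threshold, list length, background, distance and each library. Some genes that the naming rule takes are not reported here.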

Additional observations from a re-analysis of the deposited data

How the results depend on the processing

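No paired analysis was possible because the labels give the groups no shared replicate numbers. Of the alternatives, 57 values were labelled the same and 29 moved, by limits that differed between counts and widths. A count within a factor of 1.5 was labelled the same. PPARα-only regions were so labelled at 12717 with lists of equal length and at 22197 without PPARα library 2, against 16726. With one library left out at a time, PPARα+ERα-only regions ranged from 8526 to 26242 and PPARα-only regions from 17028 to 35003, because a single library then stood for its group. Genes near them ranged from 1983 to 5682 and from 3493 to 7342, the shares near a gene end from 18.4% to 19.0% and from 17.4% to 18.4%, and the median peak width in PPARα+ERα-only regions from 339 to 350.5 bp. Keeping low-background peaks alone gave 1740 PPARα-only regions and 445 genes near them, against 3440. It gave shares near an end of 17.8% and 20.6% for the PPARα+ERα-only and PPARα-only regions, which turned their order, a PPARα+ERα-only width of 349 bp against 350.5 bp, and 0% of top-ranked PPARα-only regions within 1 kb of a start site; this last alternative was chosen after seeing the data. The width was 349 bp with summits joined within 200 bp and 351.5 bp with −log10 q of at least 3. Nearness of 1 kb gave 794 and 1342 genes and shares of 8.16% and 7.38%, 10 kb gave 5110 and 9529 genes and 41.8% and 41.1%, and protein-coding genes alone gave 922 and 1407 genes and 9.70% and 7.68%. Few fragments per summit limit the PPARα+ERα lists, with medians of 9 and 10.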
